A study of Mus musculus with 18 samples.

Results

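The 10 genes studied here govern whether a cell commits to another division or leaves the cycle, and were followed in 2 embryonic mouse tissues that both use the transcription factor Ptf1a. They are the D-type cyclins Ccnd1, Ccnd2 and Ccnd3, the cyclin-dependent kinase inhibitors Cdkn1a, Cdkn1b, Cdkn2c and Cdkn2d, the antiproliferative genes Btg1 and Btg2, and the growth-arrest gene Gadd45g. The 10 genes were taken by symbol from a table of 23228 genes, and each symbol was found once. The neural sample was sorted for GFP from E12.5 neural tubes of ICR embryos, labelled WT, that carry the 2.3Ptf1a::GFP transgene. In it a 2.3 kb autoregulatory enhancer of Ptf1a, placed before the beta-globin basal promoter, drives GFP. It was set against whole, unsorted E15.5 pancreas of ICR embryos, also labelled WT. Each label named 2 libraries, but the table held 1 FPKM value per gene and tissue, so no spread, no p-value and no replicate check can be given. FPKM counts fragments per kilobase of transcript relative to all mapped fragments, and so allows levels of different genes to be set side by side within a sample. The other 16 of the 18 samples of the series measured chromatin and are not analysed here.

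D-type cyclins bind Cdk4 or Cdk6 and start the phosphorylation of the retinoblastoma protein, which frees E2F factors to drive DNA synthesis. Inhibitors of the INK4 group (here Cdkn2c and Cdkn2d) bind Cdk4 and Cdk6, and those of the Cip/Kip group (here Cdkn1a and Cdkn1b) bind cyclin-kinase complexes more widely. In the neural tube progenitors divide next to the lumen and leave the cycle as they become neurons, whereas in the pancreas of this stage acinar, duct and other cells go on dividing while they differentiate.

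Both samples carried the genes their labels call for. All 9 neuron markers found in the table and 12 of 13 neural progenitor markers passed a rule of size, given below, toward the sorted neural tube cells. The same rule found 8 of 10 acinar, 8 of 9 duct and epithelial and 6 of 10 endocrine markers higher in pancreas, and also 7 of 9 mesenchyme, 4 of 7 endothelial and 5 of 7 macrophage markers. The acinar genes Clps and Pnlip and the endocrine genes Ins1, Ins2, Iapp and Ppy were listed at 0 in neural tube. Even so, the endocrine list summed to 178 FPKM in neural tube, against 2820 FPKM in pancreas. Neural progenitor markers likewise summed to 314 FPKM in pancreas, against 1346 FPKM in neural tube. Summed over each list in neural tube and in pancreas, mesenchyme markers stood at 46.4 against 1339 FPKM, endothelial markers at 11.8 against 82.4 FPKM and macrophage markers at 6.89 against 219.6 FPKM. The erythroid list, at 1227 against 15897 FPKM, had 2 markers higher in neural tube and 4 higher in pancreas. The part that these cells, or neurons and progenitors, had in any difference below was not tested. In such bulk samples fewer cells of a type and less RNA per cell cannot be told apart. Among genes with a single annotated transcript, the most common low value of FPKM times transcript length was taken. It gave an estimate of what a single fragment per kilobase was worth. This estimate was about 0.0420 FPKM in neural tube and 0.0241 FPKM in pancreas. These estimates differ by about 1.74 times, which combines sequencing depth with any scaling of the FPKM values, so depth alone is not given.

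Gadd45g was higher in the sorted neural tube cells, Cdkn1a and Cdkn2c were lower in them than in pancreas, and the other seven genes differed by less. Calls required a difference of 2 or more on the log2(FPKM + 1) scale, which is 4 times, and a higher value of at least 5 FPKM. This is a rule of size and not a test. It called 1 of the 10 genes higher in neural tube, where 10.3% of the 10744 genes that reached 5 FPKM in either sample were called. It called 2 of the 10 higher in pancreas, where the share of all such genes was 11.9%. Another 6 genes were similar, meaning at 5 FPKM or more in both samples and within 2 times. That is 6 of the 8 at 5 FPKM or more in both, against 68.4% of the 7037 genes at that level. By these counts the 10 genes stood near the share of all genes. Their median difference, neural tube minus pancreas, was 0.35 in log2, and that of all genes reaching 5 FPKM in either was -0.0029.

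**Figure D1:**
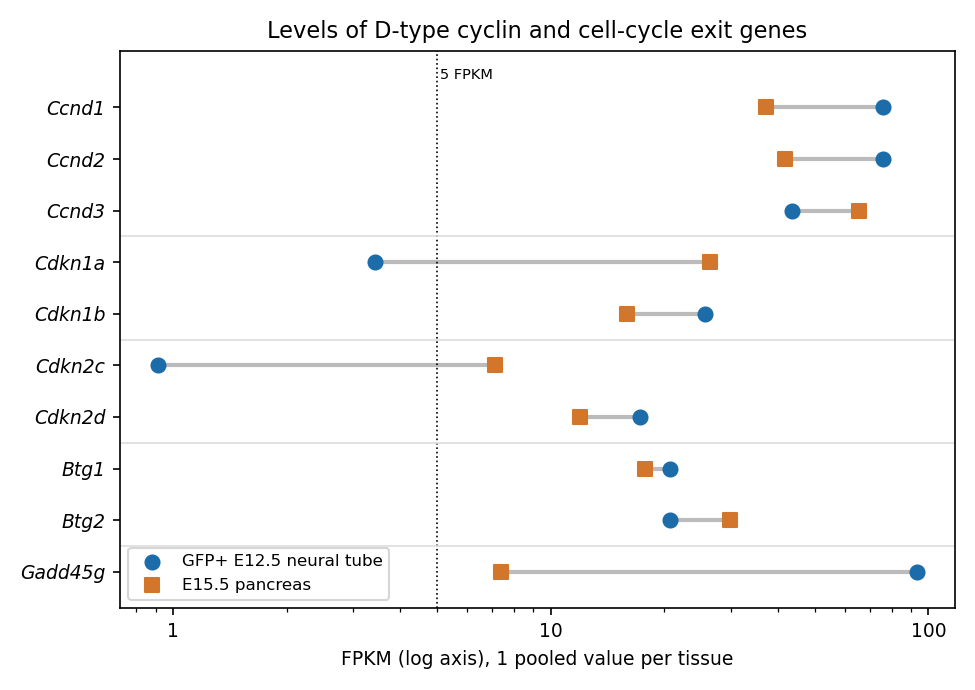
FPKM of each gene on a log axis in GFP-positive E12.5 neural tube cells (circles) and E15.5 pancreas (squares), 1 pooled value per tissue, with grey lines joining the values of a gene. The long lines are those of Cdkn1a, Cdkn2c and Gadd45g, and only Cdkn1a and Cdkn2c lie below 5 FPKM (dotted line) in a sample, the neural tube.

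The DNA before the starts of Gadd45g and Cdkn1a is shown because these genes had the largest differences in each direction on the log2(FPKM + 1) scale; by plain ratio Cdkn2c, at 7.78 times, was slightly beyond Cdkn1a, at 7.67 times. RefSeq promoters (GRCm38.p6) were found for 8 of the 10 genes, with 11 starts in all. Ccnd1 and Ccnd2 had no entry. Each sequence below is the 250 bases before a start, read 5′ to 3′ on the strand of the gene, and Cdkn1a has 2 starts that lie 2790 bases apart. Capitals mark the E-box CANNTG, the site class of basic helix-loop-helix factors such as Ptf1a, the Rbpj core TGGGAA (or TTCCCA on the other strand), and a p53 response element.
Gadd45g (chr13:51846425-51846674, + strand): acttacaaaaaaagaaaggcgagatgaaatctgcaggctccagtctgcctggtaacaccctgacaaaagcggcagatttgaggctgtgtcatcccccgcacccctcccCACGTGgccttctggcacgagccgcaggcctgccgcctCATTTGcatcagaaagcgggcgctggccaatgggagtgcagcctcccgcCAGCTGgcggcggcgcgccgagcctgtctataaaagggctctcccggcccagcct
Cdkn1a, upstream start (chr17:29090729-29090978, + strand): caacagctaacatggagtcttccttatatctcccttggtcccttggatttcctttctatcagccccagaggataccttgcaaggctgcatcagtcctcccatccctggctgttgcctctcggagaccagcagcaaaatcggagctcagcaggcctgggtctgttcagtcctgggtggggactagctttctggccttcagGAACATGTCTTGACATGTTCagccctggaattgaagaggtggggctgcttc
Cdkn1a, downstream start (chr17:29093519-29093768, + strand): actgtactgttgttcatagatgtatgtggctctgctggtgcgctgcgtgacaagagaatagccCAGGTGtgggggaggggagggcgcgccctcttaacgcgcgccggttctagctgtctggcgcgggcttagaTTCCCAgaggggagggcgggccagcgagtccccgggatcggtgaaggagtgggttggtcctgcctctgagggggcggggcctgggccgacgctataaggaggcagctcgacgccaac
Gadd45g had 3 E-boxes, whose first bases lie 142, 104 and 55 bases before the start. The farthest of them, CACGTG, reads as the form that Myc proteins bind. E-boxes were found before 2 of the 11 starts and in 66.2% of all 32851 promoters of this length, and CACGTG before 1 of the 11 starts and in 6.02% of all. Cdkn1a is the best known target of p53, and its upstream start had the p53 element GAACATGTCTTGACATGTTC, 51 bases before it. That search took 2 adjacent half-sites of 10 bases with at most 1 mismatch outside their cores, was chosen after the sequence was seen, and found a match in 15 of all promoters (0.0457%). The Rbpj core was found before 3 of the 11 starts and in 21.6% of all promoters, and at Cdkn1a it lay 117 bases before the downstream start. These matches describe letters in these windows and not binding. Of the 11 windows, 10 were above the median of 52.4% G and C of all promoters. The highest was the first Cdkn2c start at 77.2%, and the 1 below the median was the second Cdkn2c start at 42.8%.

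The D-type cyclins were among the more abundant transcripts in both samples, but their order differed. Ccnd1 (chromosome 7, 152115836 to 152125774, mm9) stood at 76.0 FPKM in neural tube and 37.3 FPKM in pancreas. Ccnd2 (chromosome 6, 127075797 to 127101066) stood at 76.0 FPKM in neural tube and 41.7 FPKM in pancreas. Ccnd3 (chromosome 17, 47642000 to 47736632) went the other way, with 43.4 FPKM in neural tube and 65.5 FPKM in pancreas. Thus Ccnd1 and Ccnd2 were level with each other and above Ccnd3 in the sorted cells, and Ccnd3 was the highest of the group in pancreas.

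On the log2(FPKM + 1) scale the differences were 1.01 for Ccnd1, 0.85 for Ccnd2 and -0.58 for Ccnd3. Ccnd2 and Ccnd3 were similar, and Ccnd1 lay just outside that range at 2.04 times. In the sorted cells 96.1% of all genes were lower than Ccnd1 and 92.6% lower than Ccnd3, and in pancreas 91.0% and 94.7%. The 3 cyclins summed to 195 FPKM in neural tube and 144 FPKM in pancreas, a difference of 0.43.

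Shares within a sample do not depend on how the samples are scaled to each other, so they show the change of order most directly. Ccnd1 made up 38.9% of the summed D-type cyclin FPKM in neural tube and 25.8% in pancreas. Ccnd2 made up 38.9% in neural tube and 28.9% in pancreas. The share of Ccnd3 was 22.2% in neural tube and 45.3% in pancreas, which is -23.1 percentage points. Ccnd3 was 0.571 times Ccnd1 in neural tube and 1.76 times Ccnd1 in pancreas. With 1 value per tissue, no error of these shares is known.

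**Figure D2:**
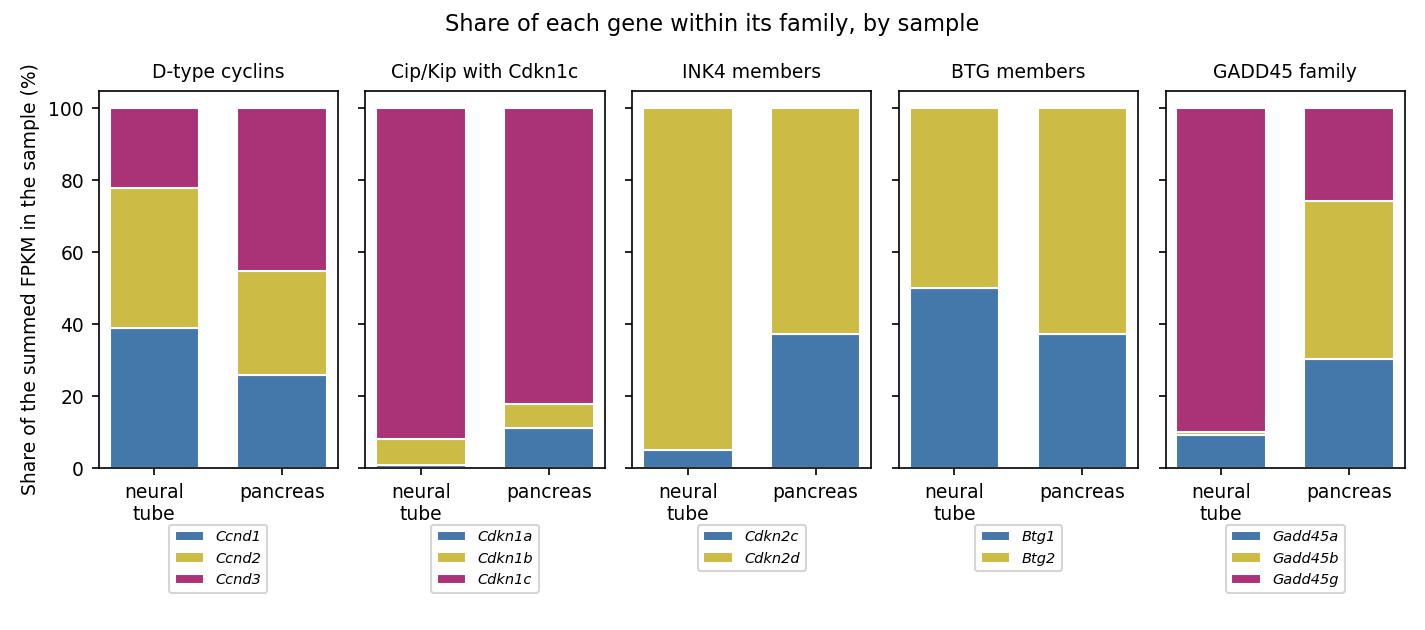
Share of each gene in the summed FPKM of its family, in percent, with neural tube left of pancreas in each panel; each bar is 1 pooled value per tissue and Cdkn1c, Gadd45a and Gadd45b are family members outside the 10 genes. Ccnd3 takes 22.2% of the D-type cyclins in neural tube and 45.3% in pancreas, and Gadd45g 90.0% of its family in neural tube and 25.7% in pancreas.

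Each D-type cyclin locus overlaps another annotated gene on the opposite strand, so that reads there can be assigned to either where strand was not used. The strand setting of the counting is not given in the sources used here. Ccnd1 shares 818 bases with Oraov1, which stood at 12.9 FPKM in neural tube and 8.58 FPKM in pancreas. Ccnd3 shares 353 bases with Bysl, at 20.3 FPKM in neural tube and 16.7 FPKM in pancreas. Ccnd2 shares 1660 bases with the noncoding gene 9330179D12Rik, at 0.204 and 0.334 FPKM in the same samples. Each partner was lower than its cyclin in both samples. A pseudogene, Ccnd3-ps, is annotated on chromosome 4 and not listed in the table, so the Ccnd3 value is uncertain as far as reads from the copy were counted with it.

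Of the Cip/Kip inhibitors, Cdkn1a was much lower in the sorted neural tube cells and Cdkn1b was not. Cdkn1a (chromosome 17, 29227924 to 29237667) encodes an inhibitor induced by p53 and by differentiation signals. Its level was 3.44 FPKM in neural tube and 26.4 FPKM in pancreas, 7.67 times higher in pancreas, with a difference of -2.63. Cdkn1b (chromosome 6, 134870419 to 134875531), an inhibitor tied to cell-cycle exit in many lineages and held down by protein breakdown, stood at 25.6 FPKM in neural tube and 15.9 FPKM in pancreas. That difference of 0.65 counted as similar. The order of the 2 genes was therefore opposite in the samples, with Cdkn1b at 7.46 times Cdkn1a in neural tube and 0.603 times in pancreas. The Cdkn1a call was lost at a pseudocount of 5 FPKM, where the difference was -1.90, and at a threshold of 8 times.

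Beside them the third gene of the group, Cdkn1c, an imprinted inhibitor, was far more abundant in both samples. It stood at 334 FPKM in neural tube and 193 FPKM in pancreas, and was similar by the rule. It made up 92.0% of the summed Cip/Kip FPKM in neural tube and 82.0% in pancreas, while Cdkn1a made up 0.946% in neural tube and 11.2% in pancreas.

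The INK4 inhibitors showed the same kind of shift. Cdkn2c (chromosome 4, 109333481 to 109339794) was the lowest of the 10 genes in both samples, at 0.914 FPKM in neural tube and 7.11 FPKM in pancreas. Its difference of -2.08 is close to the threshold, and the raw ratio was 7.78 times in favour of pancreas. About 54 fragments in neural tube and about 730 in pancreas stood behind these values. These numbers were estimated from the worth of a single fragment per kilobase and the longest annotated transcript. The call was lost under 6 of the 12 alternatives, among them a minimum of 10 FPKM and rescaling to equal totals, where the difference was -1.65. Cdkn2d (chromosome 9, 21092907 to 21095653) was similar at 17.2 FPKM in neural tube and 11.97 FPKM in pancreas, a difference of 0.49. Thus Cdkn2d was 18.8 times Cdkn2c in neural tube and 1.68 times in pancreas. The other INK4 genes were at or near 0, with Cdkn2b at 0.0328 FPKM in neural tube and 0.535 FPKM in pancreas and Cdkn2a listed at 0 in both.

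Set against the D-type cyclins within each sample, the 4 inhibitor genes gave a ratio that depended on Cdkn1c. Cdkn1a, Cdkn1b, Cdkn2c and Cdkn2d summed to 47.2 FPKM in neural tube and 61.4 FPKM in pancreas, or 0.242 and 0.425 times the D-type cyclins of the same sample. With Cdkn1c added, an alternative chosen after seeing the data, the ratio was 1.95 in neural tube and 1.76 in pancreas, so the order of the samples turned round. The sums compare transcripts only.

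Btg1 and Btg2, which bind the CCR4-NOT deadenylase and slow proliferation, were similar in the samples. Btg1 (chromosome 10, 96079635 to 96085447) stood at 20.6 FPKM in neural tube and 17.8 FPKM in pancreas, a difference of 0.20. Btg2 (chromosome 1, 135971747 to 135975697), which marks neurogenic divisions in the mouse neural tube, stood at 20.7 FPKM in neural tube and 29.9 FPKM in pancreas, a difference of -0.51. The ratio of Btg2 to Btg1 was 1.00 in neural tube and 1.68 in pancreas. The signs of these small differences turned under single rescalings, for Btg1 with upper quartile scaling (-0.050) and for Btg2 with equal totals (0.092).

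Gadd45g had the largest difference of the 10 genes. It encodes a stress and growth-arrest protein that acts on MAP kinase signalling and is switched on in newly forming neurons of mouse embryos. Gadd45g (chromosome 13, 51942047 to 51943837) stood at 93.2 FPKM in neural tube and 7.38 FPKM in pancreas, 12.6 times higher in neural tube, with a difference of 3.49. It was the highest of the 10 genes in neural tube, above Ccnd1, and the second lowest in pancreas, above Cdkn2c. The call held under all 12 alternatives, with differences between 2.99 and 4.07.

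Its relatives did not follow it. Gadd45a stood at 9.49 FPKM in neural tube and 8.72 FPKM in pancreas and was similar. Gadd45b was higher in pancreas, at 0.807 FPKM in neural tube and 12.6 FPKM in pancreas. Gadd45g thus made up 90.0% of the summed FPKM of the family in neural tube and 25.7% in pancreas, where Gadd45b made up 43.9%. Of the proteins that GADD45 binds, the kinase gene Map3k4 was similar at 15.4 FPKM in neural tube and 7.41 FPKM in pancreas, and Pcna, the replication clamp, had 153 and 309.9 FPKM. Gadd45gip1 was similar at 12.8 FPKM in neural tube and 10.99 FPKM in pancreas.

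**Figure D3:**
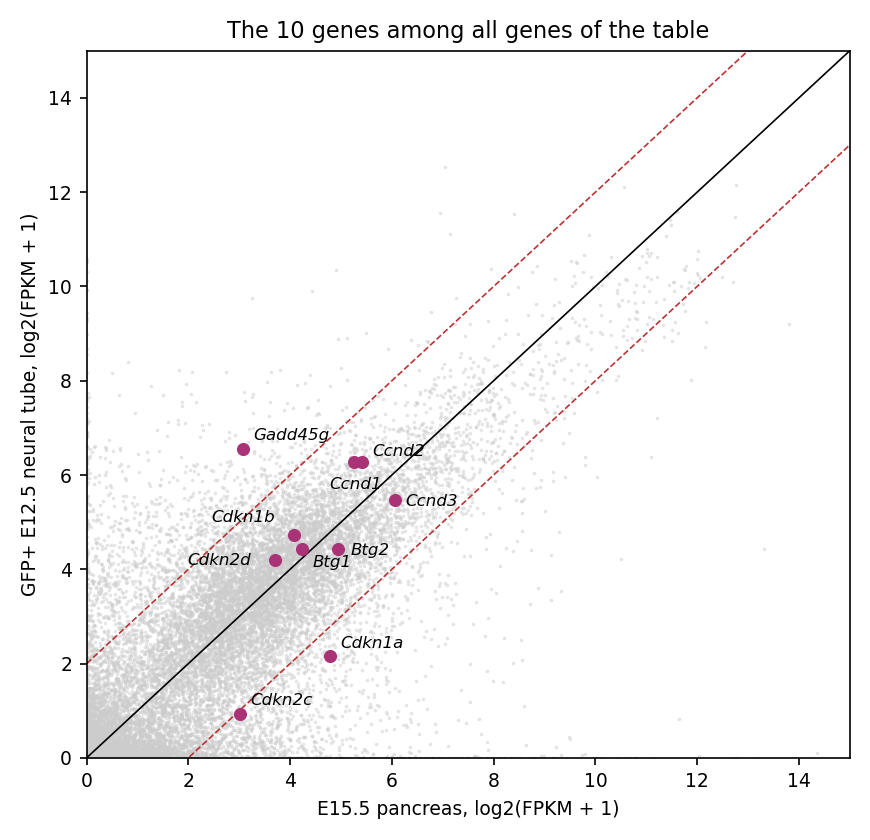
Each of the 23228 genes (grey) and the 10 genes (purple) by log2(FPKM + 1) in E15.5 pancreas (x axis) and in GFP-positive E12.5 neural tube cells (y axis); the solid line marks equal values and the dashed lines a difference of 2 either way. Gadd45g lies above the upper line, Cdkn1a and Cdkn2c below the lower one, and the other seven of the 10 genes between them.

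Each rescaling moved the differences of all 10 genes the same way, and by less for low genes. Rescaling to equal totals shifted the median of genes that reached 1 FPKM in both samples to 0.57, housekeeping centring to 0.35, equal totals without the 50 highest genes of each sample to 0.34, and upper quartile scaling to -0.21. Over the 5 rescalings Ccnd1 ranged from 0.75 to 1.62, Ccnd2 from 0.59 to 1.46, and Ccnd3 from -0.84 to 0.034. Cdkn1b ranged from 0.40 to 1.25 and Cdkn2d from 0.24 to 1.07. Ccnd2 left the similar range with housekeeping centring and both settings of equal totals, Cdkn1b with housekeeping centring and equal totals over all genes, and Cdkn2d with the last of these, while Ccnd1 entered it with median ratio and upper quartile scaling. Ccnd3 turned sign with equal totals, while the order of the 3 cyclins within a sample cannot be moved by scaling.

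**Figure D4:**
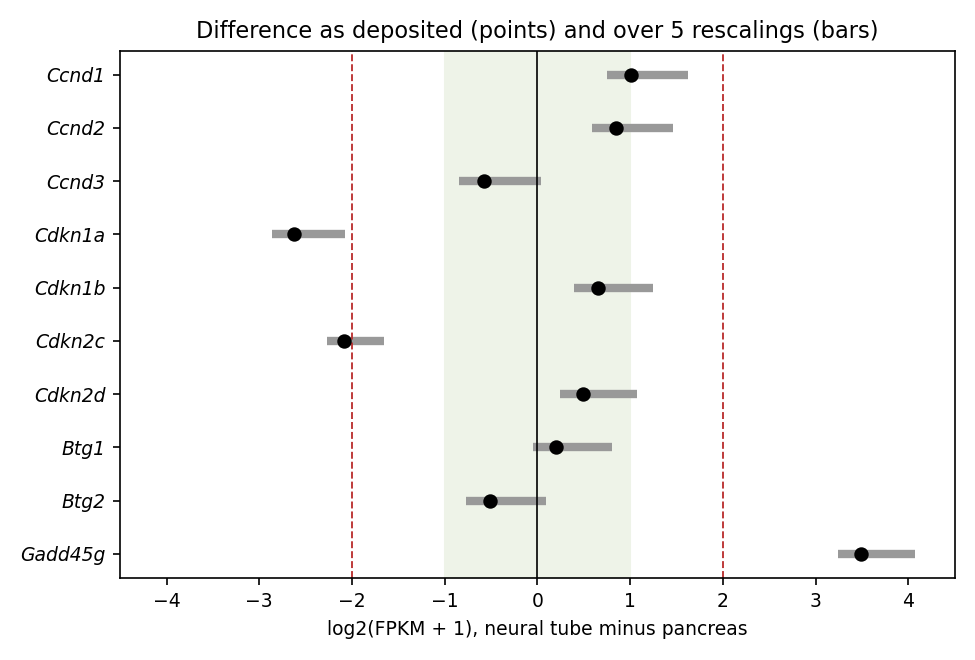
Difference in log2(FPKM + 1), neural tube minus pancreas, as deposited (points) and its range over 5 rescalings of the samples (bars); dashed lines mark the 4 times rule and the shaded band the range of 2 times. Gadd45g, at 3.49, and Cdkn1a, at -2.63, stay outside the dashed lines over the rescalings, whereas the bar of Cdkn2c crosses one.

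Genes of the surrounding cell-cycle pathway were similar at the share of all genes. Of 110 other genes in 10 pathway lists, 101 reached 5 FPKM in either sample, of which 4 (3.96%) were called toward neural tube and 5 (4.95%) toward pancreas, beside 10.3% and 11.9% of all genes. Another 56 of the 81 at 5 FPKM or more in both were similar, or 69.1% beside 68.4% of all genes. Over the alternatives the median difference changed sign for 7 of the 10 lists, and kept it for the Myc network, cyclins E, A and B, and the list of other CDK inhibitors, in which Cdkn1c alone was measured above 1 FPKM. Cdk4, by far the more abundant of the partner kinase genes of the D-type cyclins, stood at 335 FPKM in neural tube and 316 FPKM in pancreas, against 1.74 and 1.86 FPKM for Cdk6. None of the 8 kinase and activator genes, 7 of which reached 5 FPKM in either sample, passed the rule. Their median was -0.49 and lay between -0.74 and 0.098 over the alternatives. Cdk2, the partner of cyclin E, had 12.2 FPKM in neural tube and 30.9 FPKM in pancreas, and Mnat1, of the CDK-activating kinase, had 5.54 and 13.2 FPKM. Cdc37, a chaperone of Cdk4, was similar at 90.2 FPKM in neural tube and 76.3 FPKM in pancreas.

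Of 7 cyclins of the later cycle, 5 reached 5 FPKM in either sample and 0 passed the rule. Of all genes at that level 10.3% passed toward neural tube and 11.9% toward pancreas. The median over the 5 that reached 1 FPKM in either was -0.87. Ccna2 stood at 29.5 FPKM in neural tube and 73.8 FPKM in pancreas, and Ccne2 had a difference of -1.57. Of 22 replication and mitosis genes, all at 5 FPKM or more in either sample, 1 was higher in pancreas, beside 11.9% of all genes. That was the mitotic kinase gene Cdk1, at 14.2 FPKM in neural tube and 66.5 FPKM in pancreas. The list median of -0.46 became 0.14 with equal totals. Mcm2, a subunit of the replicative helicase, stood at 81.4 FPKM in neural tube and 36.4 FPKM in pancreas, and the mitotic kinase gene Plk1 at 49.2 and 26.2 FPKM. Birc5, of the chromosomal passenger complex, had 41.8 FPKM in neural tube and 109 FPKM in pancreas.

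Among 17 retinoblastoma, E2F and DREAM complex genes, all at 5 FPKM or more in either sample, 0 passed the rule (median 0.099). Of all such genes 10.3% passed toward neural tube and 11.9% toward pancreas. Another 9 of the 11 at 5 FPKM or more in both were similar, beside 68.4% of all genes at that level. E2f1, an activator of replication genes, had 49.2 FPKM in neural tube and 14.01 FPKM in pancreas, and Rb1 had 10.8 and 3.70 FPKM. Lin37, of the DREAM repressor complex, had 16.6 FPKM in neural tube and 54.4 FPKM in pancreas, and Rbl1, a relative of Rb1, was similar at 5.53 and 9.84 FPKM.

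In the p53 pathway list 13 of 15 genes reached 5 FPKM in either sample. Of these 2 were higher in pancreas, beside Cdkn1a, and 0 in neural tube. The share of all such genes was 11.9% toward pancreas and 10.3% toward neural tube. Perp, an epithelial adhesion gene, stood at 0.267 FPKM in neural tube and 21.6 FPKM in pancreas, and the cyclin G gene Ccng1 stood at 5.63 FPKM in neural tube and 40.5 FPKM in pancreas. Trp53, which encodes p53 itself, was similar at 65.2 FPKM in neural tube and 42.9 FPKM in pancreas. The list went both ways below the rule. Sesn1, a stress-induced p53 target, had 7.50 FPKM in neural tube and 16.4 FPKM in pancreas, and Phlda3 had 3.65 and 8.46 FPKM. Bbc3, a cell death gene, had 6.39 FPKM in neural tube and 1.31 FPKM in pancreas, and Mdm2 had 21.3 and 12.4 FPKM. The list median was 0.095.

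The Myc network had the highest median of the 10 lists as deposited, 0.99, with 2 of 11 genes higher in neural tube and 0 in pancreas. Mycn stood at 44.5 FPKM in neural tube and 2.78 FPKM in pancreas, and Mycl1 at 35.8 and 2.61 FPKM. Myc itself had 5.57 FPKM in neural tube and 19.3 FPKM in pancreas, a difference of -1.63 that did not reach the rule. Mxd4 was similar at 20.5 FPKM in neural tube and 21.7 FPKM in pancreas.

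The BTG relatives and the turnover genes held the remaining calls. Tob1, an antiproliferative relative of Btg1, was higher in pancreas, at 9.58 FPKM in neural tube and 57.1 FPKM in pancreas. Tob2 was similar at 7.80 FPKM in neural tube and 5.92 FPKM in pancreas, and the deadenylase gene Cnot6l had 5.71 and 13.4 FPKM. Btg3 was at 7.86 FPKM in neural tube and listed at 0 in pancreas, a value that can be a failed estimate, since the translation factor gene Eif3j was listed at 0 in neural tube and at 47.1 FPKM in pancreas. Of 13 genes for turnover of cyclin D and the Cdkn1b protein, 12 reached 5 FPKM in either sample. Beside 10.3% of all such genes, 1 of these 12 was higher in neural tube. That was Gsk3b, whose kinase marks cyclin D for breakdown, at 46.8 FPKM in neural tube and 10.3 FPKM in pancreas. Fbxo31, of a ubiquitin ligase for the Ccnd1 protein, had 9.78 FPKM in neural tube and 2.89 FPKM in pancreas. Cks2 had 60.6 FPKM in neural tube and 173 FPKM in pancreas, and Cks1b, needed for breakdown of the Cdkn1b protein, was similar at 72.9 and 129 FPKM.

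**Figure D5:**
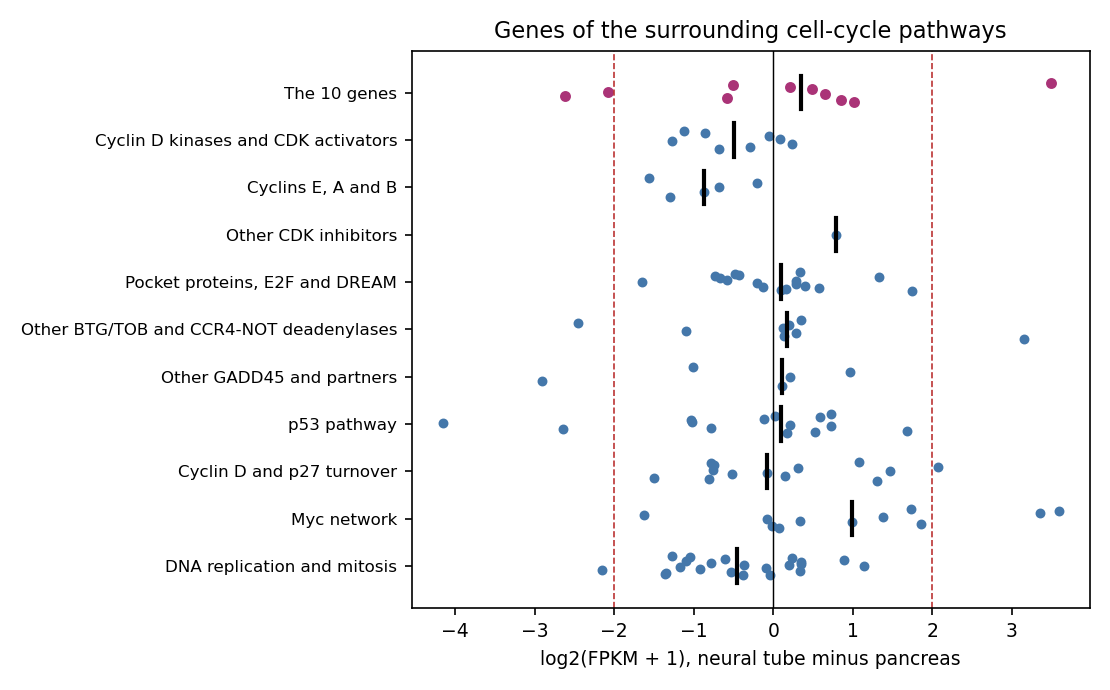
Difference in log2(FPKM + 1), neural tube minus pancreas, of the 10 genes (purple, top row) and of the pathway genes that reached 1 FPKM in either (blue, 1 point per gene); black bars are medians and dashed lines mark a difference of 2. Most points lie between the lines, and the Myc network has a median of 0.99.

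By the distance between their 2 log2(FPKM + 1) values, the pathway genes most like the members were named from 110 candidates. This measure rests on 2 samples and on nothing else. Ccnd1 and Ccnd2 lay nearest to Mcm2, at distances of 0.10 and 0.22, and Ccnd3 lay nearest to Ccnb1, a mitotic cyclin gene, at 0.22. Btg2 was nearest to Bub1b at 0.081 and Cdkn2d to E2f6 at 0.073. Cdkn1a was nearest to Myc at 0.71, Cdkn1b to Cnot7 at 0.39, Cdkn2c to Ccne2 at 0.37 and Btg1 to Aen at 0.12. Gadd45g had no close neighbour in the lists, the nearest being Gsk3b at 1.07.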

How the data were processed

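RNA was measured by sequencing in 1 sample of each of 2 tissues. The deposited values are FPKM, made by the authors, with 1 value per gene and tissue although each label named 2 libraries. The submitters' processing notes list Cuffdiff (2.0.2), TopHat2 (2.0.4), TopHat and CASAVA, with build mm9, and no role, annotation or filter was found in the labels. Per the labels' protocols, RNA came from sorted cells through a column kit and from pancreas through Trizol, and library kits may have differed, so tissue, stage, sorting and preparation cannot be told apart.

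Differences were computed as log2(FPKM + 1), neural tube minus pancreas, with python 3.11.15, which understates low genes. The rules of size were 4 times with 5 FPKM, and 2 times for similarity. A check on simulated data used only differences well beyond 4 times in genes well above 5 FPKM. It therefore does not bear on calls near either limit. Every member was named, with the 2 largest differences each way in each pathway list among genes at 5 FPKM or more, and the nearest pathway gene; Trp53, Cdk6, Sesn1, Phlda3, Gadd45a, Cdkn2a and Cdkn2b were named after their values were seen. The members and lists were chosen with earlier results of these data known. Coordinates are from GENCODE M1 on NCBIM37, the same assembly as mm9. Fragment numbers were estimated from the most common low value of FPKM times transcript length, approximately, so no counting interval is given. The 12 alternatives were 2 pseudocounts, 2 minimums, 5 rescalings, 2 thresholds and a narrower similarity range.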

Additional observations from a re-analysis of the deposited data

How the results depend on the processing

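No paired analysis was possible because the table held 1 value per gene and tissue, and for the same reason no library could be left out. The share of all genes was computed only under the main rule. The counts of members under other settings therefore have no share beside them and describe the rule only. The count of members higher in neural tube, 1, became 2 at a threshold of 2 times. The count higher in pancreas, 2, became 1 with a minimum of 10 FPKM, housekeeping centring, equal totals and equal totals without the highest genes, and 0 with a pseudocount of 5 FPKM or a threshold of 8 times. The count of similar members, 6, became 3 with equal totals and 5 with equal totals without the highest genes. It was 4 with housekeeping centring and with a similarity range of 1.5 times. With a pseudocount of 5 FPKM, median ratio scaling or upper quartile scaling it was 7. Among single members, the difference changed sign for Ccnd3 (0.034) and Btg2 (0.092) with equal totals and for Btg1 (-0.050) with upper quartile scaling. The summed D-type cyclins, at 0.43, were no longer within 2 times with equal totals (1.06). The sign of small summed differences turned for Cip/Kip members, from -0.53 as deposited, with equal totals (0.084). It turned for INK4 members, at -0.070 as deposited, with housekeeping centring (0.29), equal totals (0.52) and equal totals without the highest genes (0.27). It turned for BTG members, at -0.20 as deposited, with the same 3 settings (0.17, 0.41 and 0.15). The log2 ratio of inhibitors to D-type cyclins, neural tube minus pancreas, was -0.81 and turned to 0.15 with Cdkn1c added, which by itself supplies most of that sum. Each rescaling moves both samples by 1 factor, so these shifts follow from its construction, and shares within a sample do not change. Cdkn2c, the lowest member, rested on the fewest estimated fragments of the members in neural tube, about 54. Depth was not varied, so its part in that call was not tested.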
